A study of Mus musculus with 6 samples.

Results

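The genes described here are the co-receptor, the adaptors, the kinases and the ubiquitin ligases that carry the signal of Toll-like receptor 4 (TLR4) into the cell. They were chosen by name and comprise Ly96, Myd88, Tirap, Ticam1, Ticam2, Irak1, Irak2, Irak4, Traf6 and Traf3, which are 10 of the 54532 genes in the deposited table. All 10 passed the filter of a mean of at least 1 FPKM (fragments relative to transcript length and library total) that left 9794 genes for testing. In Model vs. Control, Myd88 and Ly96 rose and passed the test, and 15.1% of all genes tested passed in either direction. Irak1 had lower and Irak2 higher deposited FPKM in both Model libraries than in both Control libraries without passing. Such a separation was found for 61.1% of all genes tested. With each library scaled to its summed fragments, Irak2 overlapped between these groups, Ly96 no longer passed and Irak1 passed as lower. With muscone added, in MUS vs. Model, 0 of the 10 passed, and so did 0 of all 9794 genes tested in this fit of FPKM. The paper itself reported differentially expressed genes in that comparison, with another method (DESeq2) at the same thresholds.

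The study examined muscone, a macrocyclic ketone and the main odorant of musk, in wild-type peritoneal macrophages elicited with thioglycolate in male C57BL/6J mice that were 6 to 8 weeks old. Control cells received no treatment. Model cells received 500 ng/mL lipopolysaccharide (LPS), the bacterial ligand of TLR4, for 5.5 h and then 2 mM ATP, a trigger of the NLRP3 inflammasome, for 0.5 h. MUS cells were treated like Model cells, and 50 µM muscone was added 0.5 h before ATP. RNA with poly-A tails was sequenced in 2 libraries per group, and the labels call the replicate number a batch. No group received LPS without ATP or muscone without LPS. Model vs. Control therefore measured LPS and ATP jointly, and MUS vs. Model the addition of muscone to cells that were already primed. The sources do not state whether the 2 libraries of a group came from separate animals or cultures, so the p-values measure the spread between libraries, which may be technical.

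As background, LPS is presented to TLR4 by MD-2, the product of Ly96. At the plasma membrane the receptor recruits TIRAP, the sorting adaptor, and MyD88, which assembles the kinases IRAK4, IRAK1 and IRAK2 into the Myddosome. The kinases engage the ubiquitin ligase TRAF6 and lead to NF-κB and cytokine transcription. From endosomes the same receptor uses TRAM (Ticam2) and TRIF (Ticam1), which signal through TRAF3 to TBK1 and the interferon regulatory factors. In macrophages these arms drive the transcriptional response to Gram-negative bacteria.

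The libraries held 15526321 to 17135442 fragments on genes and 17406 to 24906 genes with at least 1 fragment, with the most genes in Model replicate 1. The 10 genes had between 84 fragments (Ticam2, Model replicate 1) and 3910 fragments (Myd88, Model replicate 1). At 3 fragments, the upper limit that a count of 0 allows, a 1-kb transcript would have 0.131 to 0.213 FPKM, and this covers counting error only. All 7 macrophage markers passed the filter, with summed FPKM of 8426 to 13340 per library. Most of this sum was Lyz2, at 7275 to 12007 FPKM, and single markers differed in both directions. Csf1r had 208 and 272 FPKM in Control and 83.4 to 105 in the other libraries. Fcgr1 had 18.3 and 7.87 FPKM in Control and 134 to 161 in the others. Of the markers of B, T, mast, mesothelial and dendritic cells, 0 passed, and no such list summed to more than 1.59 FPKM in a library. Of 4 eosinophil markers only Siglecf passed, with Prg2 and Epx listed at 0 throughout, and their sum was 4.17 and 2.78 FPKM in Control, 1.95 and 1.42 in Model, with 1.63 and 1.60 in MUS. The Control sums lay above all others, and their part in the results was not tested. Control replicate 2 stood apart from Control replicate 1. Its summed FPKM over 8 readout genes of the MyD88 arm (Il1b, Cxcl2, Ptgs2, Tnf, Il6, Cxcl1, Il12b and Nfkbiz) was 703, against 39.6 in Control replicate 1, 17848 and 11462 in Model, with 13507 and 11097 in MUS. Over 8 readout genes of the TRIF arm (Cxcl10, Ccl5, Ifit1, Ifit2, Ifit3, Isg15, Cxcl11 and Ifnb1) the sums were 10.8 and 273 in Control, 8478 and 5586 in Model, with 7262 and 6468 in MUS. Results that rest on Control replicate 2 are given with and without it.

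A further property of the deposited values bears on every comparison with Control. Fragment numbers recovered from the FPKM showed that the library total used by the authors was 1.45 and 1.34 times the summed fragments on genes in the Control libraries and 0.909 to 0.998 times in the others. When each library was scaled to its own summed fragments, the median log2 fold change of all 9794 genes in Model vs. Control moved from 0.04 to -0.40. Values on the summed-fragment scale are therefore given beside the deposited ones for the comparisons with Control, and ratios of genes within a library, in which any such scale cancels, are given as well.

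Upstream sequences are shown to place any motif beside the values that follow. Those of Myd88 are given for its largest change in Model vs. Control. Irak2 and Irak1 had values of opposite sign there, and the Control libraries of Traf3 lay furthest apart relative to their mean. The sequences were taken from RefSeq on GRCm38.p6, where 8 of the 10 genes had an entry. Ly96, which also passed the test, and Ticam2 had none and could not be shown. Each line gives up to 250 bases before an annotated transcription start, 5′ to 3′ on the strand of the gene. For Myd88 the 23 bases next to the start were left out because GENCODE M21 places them in an exon. Capitals mark a match, on either strand, to the kappa B consensus or to an interferon element (paired GAAA repeats with 2 bases between them).
Myd88 (chr9:119340042-119340268, - strand): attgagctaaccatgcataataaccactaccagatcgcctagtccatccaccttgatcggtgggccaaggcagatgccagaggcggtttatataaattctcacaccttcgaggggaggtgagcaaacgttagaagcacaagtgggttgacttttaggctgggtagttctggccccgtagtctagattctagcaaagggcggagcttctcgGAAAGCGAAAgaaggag
Irak2 (chr6:113638217-113638466, + strand): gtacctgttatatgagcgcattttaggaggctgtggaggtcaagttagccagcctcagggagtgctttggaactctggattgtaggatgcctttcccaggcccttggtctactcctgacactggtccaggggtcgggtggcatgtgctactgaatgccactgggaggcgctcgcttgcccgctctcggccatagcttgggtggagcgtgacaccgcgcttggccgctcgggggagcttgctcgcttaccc
Irak1 (chrX:74023919-74024168, - strand): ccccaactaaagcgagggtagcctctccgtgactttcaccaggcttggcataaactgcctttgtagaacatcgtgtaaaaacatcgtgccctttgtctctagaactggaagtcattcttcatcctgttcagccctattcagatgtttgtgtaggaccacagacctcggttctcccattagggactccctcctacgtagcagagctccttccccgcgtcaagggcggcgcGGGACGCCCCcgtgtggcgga
Traf3 (chr12:111166120-111166369, + strand): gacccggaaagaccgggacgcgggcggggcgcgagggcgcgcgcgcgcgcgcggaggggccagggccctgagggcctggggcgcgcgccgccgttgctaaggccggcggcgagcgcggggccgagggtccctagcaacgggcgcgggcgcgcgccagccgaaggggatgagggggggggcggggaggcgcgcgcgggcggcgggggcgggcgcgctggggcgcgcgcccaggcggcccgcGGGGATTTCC
The Myd88 window held an interferon element whose outermost base lay 40 bases before the start, and such a match was found in 2.98% of the 32851 windows of 250 bases in the table. A kappa B match began 21 bases before the start in Irak1 and 10 bases before it in Traf3, against 7.25% of all windows. The Irak2 window held neither, and nor did the windows of Traf6, Tirap, Irak4 and Ticam1, which are not shown. The AP-1 site TGANTCA, present in 6.75% of all windows, was in none of the windows of the 8 genes. Over all 250 bases, the Traf3 window had a GC content of 85.2% with 49 CpG dinucleotides, whereas the other shown windows had 51.2% to 60.0% and 9 to 14. The Irak1 window shares its end with Mir718, a microRNA gene annotated on the same strand. A match describes letters only and was not tied to binding in these cells.

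Model vs. Control asked which of these genes changed with LPS and ATP. Of the 10 genes, 2 passed the limma test (p of at most 0.05 after Benjamini-Hochberg adjustment, with a log2 fold change beyond 1 in either direction), against 15.1% of all genes tested. Both were higher in Model, against 9.5% of all genes called higher, and 0 were called lower, against 5.56%. The libraries of the groups did not overlap for 8 of the 10 genes, 5 higher and 3 lower, against 61.1% of all genes. On the summed-fragment scale, a check added after seeing the data, 6 of the 10 did not overlap, 2 higher (Myd88 and Ly96) and 4 lower (Irak1, Irak4, Ticam1 and Ticam2), against 68.6% of all genes. The median log2 fold change of the 10 genes was 0.30 on the deposited and -0.18 on the summed-fragment scale, and that of all genes was 0.04 and -0.40. Fold changes are differences of log2(FPKM + 1), a scale that understates the change of genes with low FPKM. The 2 libraries per group allow no exact permutation p under 1 in 3, so only the model fitted across all genes could pass a threshold.

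**Figure D1:**
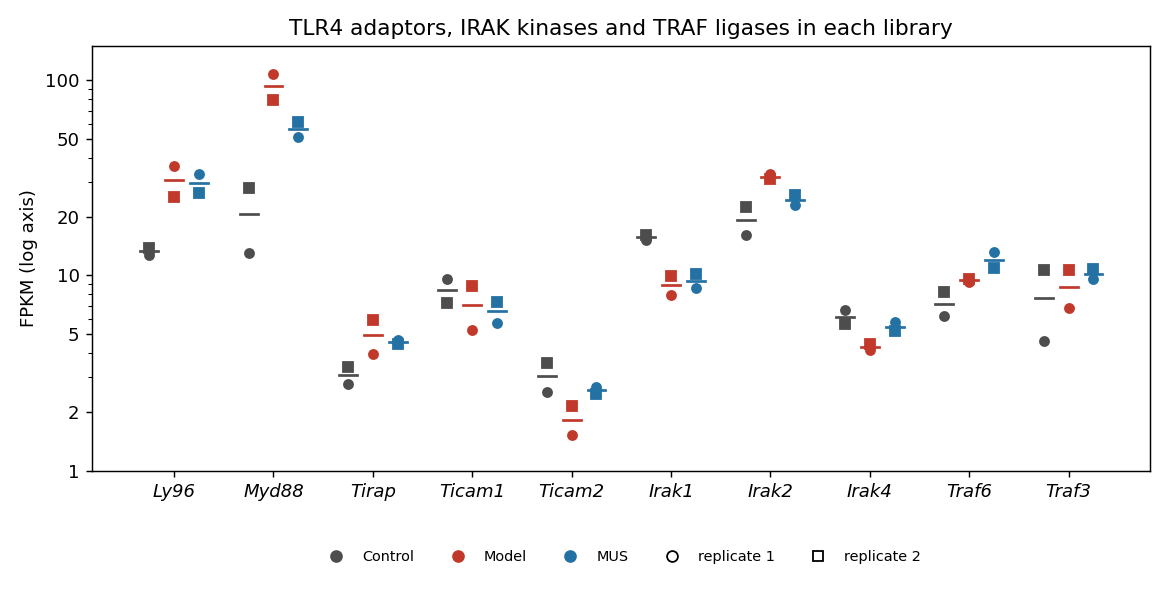
FPKM of the 10 genes (log axis) in the 6 libraries, with circles for replicate 1, squares for replicate 2 and short lines for group means. Myd88 lies highest in every group by its mean and is widest apart between groups, with 13.1 and 28.2 FPKM in Control and 108 and 79.6 in Model.

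Ly96 encodes MD-2, the small secreted protein that binds lipid A and sits on the TLR4 ectodomain. The gene lies at chr1:16688051-16709611 (+ strand) and overlaps no other annotated gene. It measured 12.8 and 13.8 FPKM in Control, 36.3 and 25.3 in Model, with 33.2 and 26.5 in MUS. All 4 stimulated libraries lay above both Control libraries, and the Model and MUS libraries overlapped. Ly96 rose by a log2 fold change of 1.13 (SE 0.28, 95% interval 0.46 to 1.80, limma adjusted p = 0.0366) in Model vs. Control. The group means were 13.3 ± 0.75 FPKM (SD, n = 2) and 30.8 ± 7.79 FPKM (SD, n = 2), a ratio of 2.32. Within batch 1 the log2 difference was 1.44 and within batch 2 it was 0.83. The call was lost when Control replicate 1 (1.08, adjusted p = 0.126), Control replicate 2 (1.19, 0.0551), Model replicate 1 (0.88, 0.121), MUS replicate 1 (1.13, 0.0922) or MUS replicate 2 (1.13, 0.0938) was left out of the limma fit. On the summed-fragment scale the log2 fold change was 0.61 (limma adjusted p = 0.106), or 1.01 above the median of all genes.

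Myd88 encodes the adaptor that nucleates the Myddosome. Its FPKM were 13.1 and 28.2 in Control, 108 and 79.6 in Model, with 51.5 and 60.9 in MUS. The 3 groups formed separate levels with no overlap, with Model highest, MUS between and Control lowest. It rose by a log2 fold change of 2.21 (SE 0.40, 95% interval 1.26 to 3.16, limma adjusted p = 0.0135) in Model vs. Control, the largest change among the 10 genes in that comparison. The means were 20.6 ± 10.7 FPKM (SD, n = 2) in Control and 93.6 ± 19.8 FPKM (SD, n = 2) in Model, a ratio of 4.53. The within-batch log2 differences were 2.95 and 1.46. Without Control replicate 2 the log2 fold change was 2.73 (limma adjusted p = 0.00317), and without Control replicate 1 it was 1.68 (0.0345). The call was lost without Model replicate 1 (1.99, limma adjusted p = 0.0761). It was kept on the summed-fragment scale (1.68, limma adjusted p = 0.0194), where Myd88 stood 2.07 above the median of all genes.

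Myd88 lies at chr9:119335934-119341411 (- strand) and overlaps Acaa1a, a peroxisomal thiolase gene on the opposite strand that shares 7.42% of the 50-base stretches of the Myd88 transcripts. The library kit as described does not mark strand and the counting setting is not given, so reads in the overlap cannot be assigned. Acaa1a had 11.8 and 19.9 FPKM in Control, 33.8 and 24.8 in Model, with 10.8 and 15.6 in MUS. Its Model libraries were thus also the highest, and its MUS libraries lay below both Model libraries, as for Myd88. In MUS, unlike Myd88, Acaa1a lay within or below the Control range. The part of Acaa1a in the Myd88 values was not tested. The neutrophil marker S100a8, a gene also made by stimulated macrophages, summed with 4 other neutrophil markers to 13.5 and 30.6 FPKM in Control, 110 and 56.5 in Model, with 64.0 and 50.3 in MUS. Of these markers S100a9, Ly6g and Retnlg were listed at 0 in every library. In such bulk samples fewer cells of a type and less RNA per cell cannot be told apart.

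Tirap, the adaptor that bridges TLR4 and MyD88 at the membrane, had low levels of 2.79 and 3.41 FPKM in Control, 3.94 and 5.93 in Model, with 4.64 and 4.47 in MUS. Both Model libraries lay above both Control libraries, although the log2 fold change of 0.52 (95% interval -0.04 to 1.08) did not pass (limma adjusted p = 0.173) and was 0.09 on the summed-fragment scale, where the groups overlapped. Tirap overlaps Srpr on the opposite strand, which had 27.2 and 32.0 FPKM in Control and 65.2 and 57.4 in Model. Of the 50-base stretches of Tirap, 9.7% also occur in other genes. Among these is Gm39318, an antisense gene that also overlaps Tirap, whereas Srpr shares no such stretch. The part of either gene in the Tirap values was not tested. Of the endosomal adaptors, Ticam1 (TRIF) measured 9.60 and 7.22 FPKM in Control, 5.26 and 8.80 in Model, with 5.73 and 7.35 in MUS. The groups overlapped, and the difference had opposite signs in the batches, with log2 differences of -0.76 in batch 1 and 0.25 in batch 2. Scaled to summed fragments, Ticam1 was lower in both Model libraries (-0.74, limma adjusted p = 0.126).

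Ticam2 (TRAM), which links TRIF to the receptor, was the lowest of the 10 genes by its mean over all libraries. It measured 2.53 and 3.56 FPKM in Control, 1.52 and 2.14 in Model, with 2.68 and 2.48 in MUS. Both Model libraries lay below all 4 others, and the log2 fold change in Model vs. Control of -0.51 (95% interval -1.06 to 0.04) did not pass (limma adjusted p = 0.171). Scaled to summed fragments it was -0.91 (limma adjusted p = 0.0333), short of the fold threshold. Of the 50-base stretches of Ticam2, 14.7% also occur in other genes, among them Tmed7, which overlaps it on the same strand. Reads of the pair could have been split either way, and the extent of Ticam2 in the table differs from GENCODE M21. Tmed7 itself measured 25.8 to 35.9 FPKM in Control and 42.0 to 47.5 in Model, the opposite order to Ticam2.

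None of the 3 kinases passed on the deposited scale in Model vs. Control. Irak1, whose product is phosphorylated in the Myddosome and then turned over, measured 15.2 and 16.1 FPKM in Control, 7.98 and 9.94 in Model, with 8.59 and 10.2 in MUS. All 4 stimulated libraries lay below both Control libraries. The log2 fold change of -0.75 (SE 0.23, 95% interval -1.30 to -0.20) in Model vs. Control missed the threshold (limma adjusted p = 0.0698). On the summed-fragment scale it was -1.26 and passed (limma adjusted p = 0.0147), so that the calls among the 10 genes were then 1 higher (Myd88) and 1 lower (Irak1). Over all genes the same change of scale moved the split from 930 higher and 545 lower to 641 higher and 1530 lower. Relative to the median of all genes the Irak1 value was -0.79 on the deposited and -0.86 on the summed-fragment scale.

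Irak2, the kinase that prolongs the response of MyD88 signalling, measured 16.2 and 22.4 FPKM in Control, 33.0 and 31.2 in Model, with 22.8 and 25.8 in MUS. In deposited FPKM the Model libraries lay above all others, and the MUS libraries lay just above the higher Control library. A log2 fold change of 0.72 (SE 0.27, 95% interval 0.09 to 1.36) in Model vs. Control did not pass (limma adjusted p = 0.111). It was 0.95 (limma adjusted p = 0.0589) without Control replicate 2, 0.50 (0.354) without Control replicate 1 and 0.20 (0.572) on the summed-fragment scale, where Model and Control overlapped. Irak4, the kinase that acts at the top of the cascade, measured 6.67 and 5.63 FPKM in Control, 4.13 and 4.47 in Model, with 5.75 and 5.19 in MUS. Both Model libraries were the lowest, with a log2 fold change of -0.43 (95% interval -0.91 to 0.05, limma adjusted p = 0.189). The summed-fragment value was -0.89 (limma adjusted p = 0.0284), short of the fold threshold. Irak4 overlaps Twf1 on the opposite strand, and 5.11% of its 50-base stretches also occur in Twf1 or 1 further gene.

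The ubiquitin ligases had smaller differences. Traf6, which builds K63-linked chains downstream of the IRAK kinases, measured 6.16 and 8.18 FPKM in Control, 9.30 and 9.62 in Model, with 13.1 and 10.9 in MUS. The groups did not overlap and lay in the order Control, Model, MUS, yet the log2 fold change in Model vs. Control of 0.37 did not pass (limma adjusted p = 0.312) and was -0.12 on the summed-fragment scale, where these groups overlapped. Traf3, which serves the TRIF arm and restrains the MyD88 arm, measured 4.59 and 10.7 FPKM in Control, 6.78 and 10.7 in Model, with 9.55 and 10.8 in MUS. The spread within Control exceeded any difference between group means, and the log2 fold change of 0.24 (limma adjusted p = 0.697) was -0.24 on the summed-fragment scale.

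**Figure D2:**
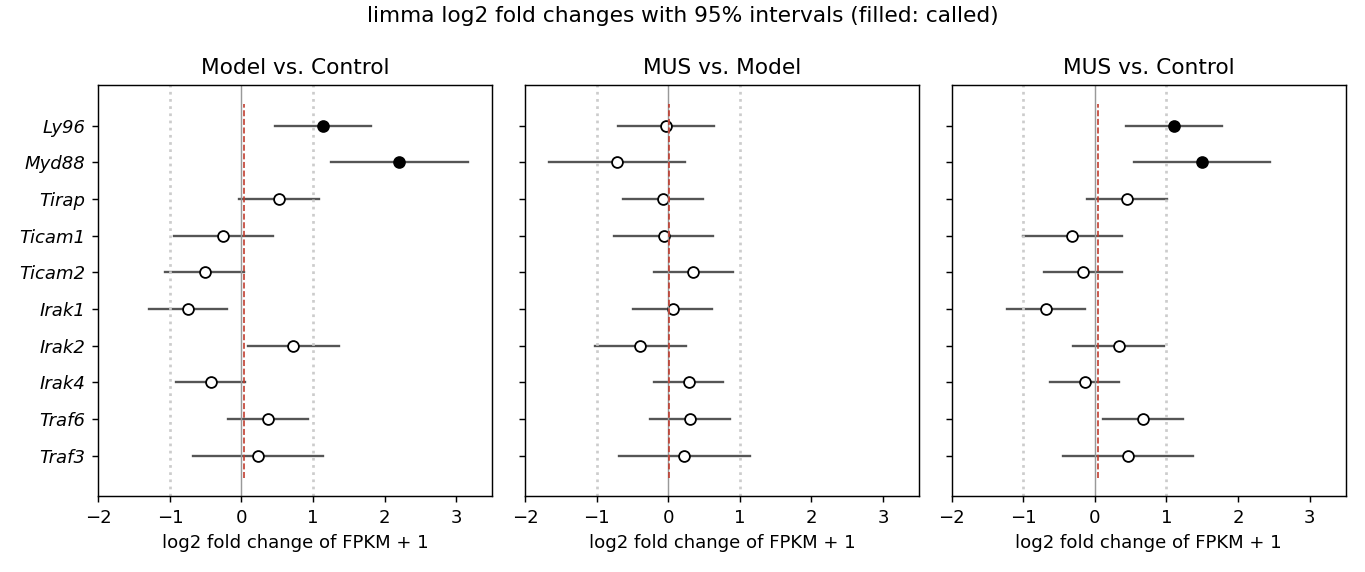
limma log2 fold changes of FPKM + 1 for the 10 genes in 3 comparisons, with lines for 95% intervals, filled circles for genes that passed, dotted lines at a change of 1 in either direction and a red dashed line at the median of all genes tested. Myd88 and Ly96 are filled in both comparisons with Control, and every interval in MUS vs. Model includes 0.

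The order of levels within a group also differed between groups. In Control, Myd88 had the highest mean (20.6 FPKM), but its libraries overlapped those of Irak2 (19.3 FPKM), which was followed by Irak1 (15.6 FPKM) and Ly96 (13.3 FPKM) without overlap. In Model, Myd88 (93.6 FPKM) stood above Irak2 (32.1 FPKM) and Ly96 (30.8 FPKM), whose libraries overlapped. Traf6, Irak1, Traf3, Ticam1 and Tirap followed with means of 9.46, 8.96, 8.72, 7.03 and 4.94 FPKM, and each overlapped its neighbour. In MUS the order was Myd88 (56.2 FPKM), Ly96 (29.8 FPKM), Irak2 (24.3 FPKM) and Traf6 (12.0 FPKM), with no overlap between neighbours. Irak1 ranked 3 in Control, 5 in Model and 6 in MUS. Ticam2 had the lowest mean in every group. Among all genes tested, the mean FPKM of the 10 genes over 6 libraries ranged from percentile 25.0 (Ticam2) to 91.8 (Myd88).

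Ratios within a library gave the same contrasts free of the library total. The ratio of Irak2 to Irak1 FPKM was 1.07 and 1.39 in Control, 4.13 and 3.14 in Model, with 2.66 and 2.52 in MUS. The ranges did not overlap, and the mean log2 ratio in Model was 1.56 above that in Control, while the MUS mean was 0.48 below that in Model. FPKM is per length, and Irak2 was the more abundant of the pair in every library. The ratio of Irak2 to Irak4 was 2.42 and 3.99 in Control, 7.97 and 6.98 in Model, with 3.98 and 4.97 in MUS, where the MUS and Control ranges overlapped.

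Myd88 to Irak4, the adaptor against the kinase that binds it, had ratios of 1.96 and 5.01 in Control, 26.0 and 17.8 in Model, with 8.97 and 11.8 in MUS. These groups did not overlap, and the mean log2 ratio in Model was 2.78 above Control and 1.07 above MUS. The ratio of Myd88 to Ticam1, the adaptors of the separate arms, was 1.36 and 3.91 in Control, 20.5 and 9.041 in Model, with 8.996 and 8.30 in MUS. Model and MUS lay above Control, and the gap between Model replicate 2 and MUS replicate 1 was only 9.041 against 8.996. For Myd88 to Tirap the ratios were 4.69 and 8.29 in Control, 27.3 and 13.4 in Model, with 11.1 and 13.6 in MUS, with an overlap of Model and MUS.

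The other ratios separated the groups less. Ly96 to Tlr4 was 1.40 and 1.22 in Control, 3.39 and 1.45 in Model, with 1.94 and 1.96 in MUS, so that Model replicate 1 stood apart. Ticam2 to Ticam1 was 0.263 and 0.493 in Control, 0.288 and 0.243 in Model, with 0.468 and 0.337 in MUS. Traf6 to Traf3 was 1.34 and 0.764 in Control, 1.37 and 0.902 in Model, with 1.37 and 1.01 in MUS, with replicate 1 above replicate 2 in every group. With 2 libraries a group these ratios were not tested.

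**Figure D3:**
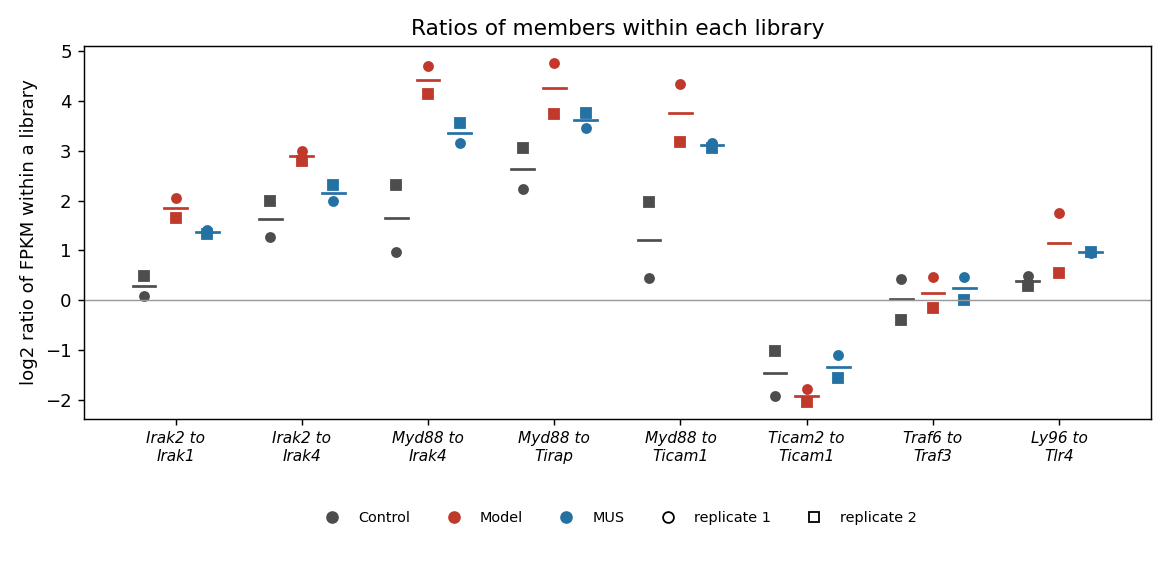
log2 ratios of the FPKM of a pair of genes within each library, with circles for replicate 1, squares for replicate 2 and short lines for group means. Irak2 to Irak1 and Myd88 to Irak4 separate the 3 groups, with Model highest, whereas Traf6 to Traf3 overlaps in all.

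MUS vs. Model asked whether muscone added before ATP changed these transcripts. Of the 10 genes 0 passed the limma test, against 0.0% of all genes, and the adjusted p-values ranged from 0.703 to 0.988. At an unadjusted p under 0.05 there were 0 of 10 genes, against 8.42% of all genes (825 of 9794). With voom on the recovered fragments 0 of the 10 passed as well. The libraries did not overlap for 5 of the 10 genes, 3 higher (Traf6, Irak4 and Ticam2) and 2 lower (Myd88 and Irak2) in MUS, against 42.1% of all genes. The median log2 fold change was 0.02 for the 10 genes and 0.01 for all genes.

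The intervals set what the 2 libraries per group could show. Myd88 had a log2 fold change of -0.71 (95% interval -1.66 to 0.24, limma adjusted p = 0.703), with within-batch differences of -1.05 and -0.38. Irak2 had -0.39 (95% interval -1.02 to 0.25), with -0.51 and -0.27 within the batches. In the MUS libraries Myd88 lay between Control and Model on both scales. Irak2 did so in deposited FPKM, but its log2 fold change in MUS vs. Control was -0.18 on the summed-fragment scale, where MUS and Control overlapped.

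Among the genes with higher values in MUS, Ticam2 had a log2 fold change of 0.35 (95% interval -0.20 to 0.90), Traf6 0.31 (-0.25 to 0.87) and Irak4 0.29 (-0.20 to 0.77). For Ly96 the value was -0.03 (95% interval -0.70 to 0.64) and for Irak1 it was 0.07 (-0.48 to 0.62). The intervals of Tirap (-0.63 to 0.49), Ticam1 (-0.75 to 0.63) and Traf3 (-0.68 to 1.14) also included 0. Changes within these intervals are not excluded by the data.

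MUS vs. Control used the same Control libraries as Model vs. Control, and MUS vs. Model the same Model libraries, so that the 3 comparisons are not independent. In MUS vs. Control 2 of the 10 genes passed, against 20.2% of all genes. They were Myd88 and Ly96, both higher (11.3% of all genes were called higher), and 0 were called lower (8.91% of all genes). The libraries did not overlap for 6 of the 10 genes, 5 higher and 1 lower, against 73.3% of all genes. Scaled to summed fragments these were 2 higher (Myd88 and Ly96) and 4 lower (Irak1, Irak4, Ticam1 and Ticam2), against 78.2% of all genes. Myd88 had a log2 fold change of 1.49 (95% interval 0.54 to 2.44, limma adjusted p = 0.0371) and Ly96 of 1.10 (0.43 to 1.77, 0.0324). Without Control replicate 2 the values were 2.02 (limma adjusted p = 0.00787) for Myd88 and 1.15 (0.0527) for Ly96, which then no longer passed. Without Control replicate 1 neither passed, with 0.97 (limma adjusted p = 0.116) for Myd88 and 1.05 (0.102) for Ly96.

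The calls in MUS vs. Control also rested on each MUS library. Without MUS replicate 1 the log2 fold changes were 1.61 (limma adjusted p = 0.178) for Myd88 and 0.94 (0.248) for Ly96, and without MUS replicate 2 they were 1.37 (0.185) and 1.26 (0.114). Traf6 had a log2 fold change of 0.68 (95% interval 0.12 to 1.24) and Irak1 of -0.68 (-1.23 to -0.13), and neither passed (limma adjusted p = 0.0775 and 0.0728). On the summed-fragment scale Irak1 passed with -1.18 (limma adjusted p = 0.013), while Myd88 (0.97, 0.0792), Ly96 (0.59, 0.109) and Traf6 (0.19, 0.532) did not. Over all genes the split moved from 1107 higher and 873 lower to 736 higher and 1922 lower.

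**Figure D4:**
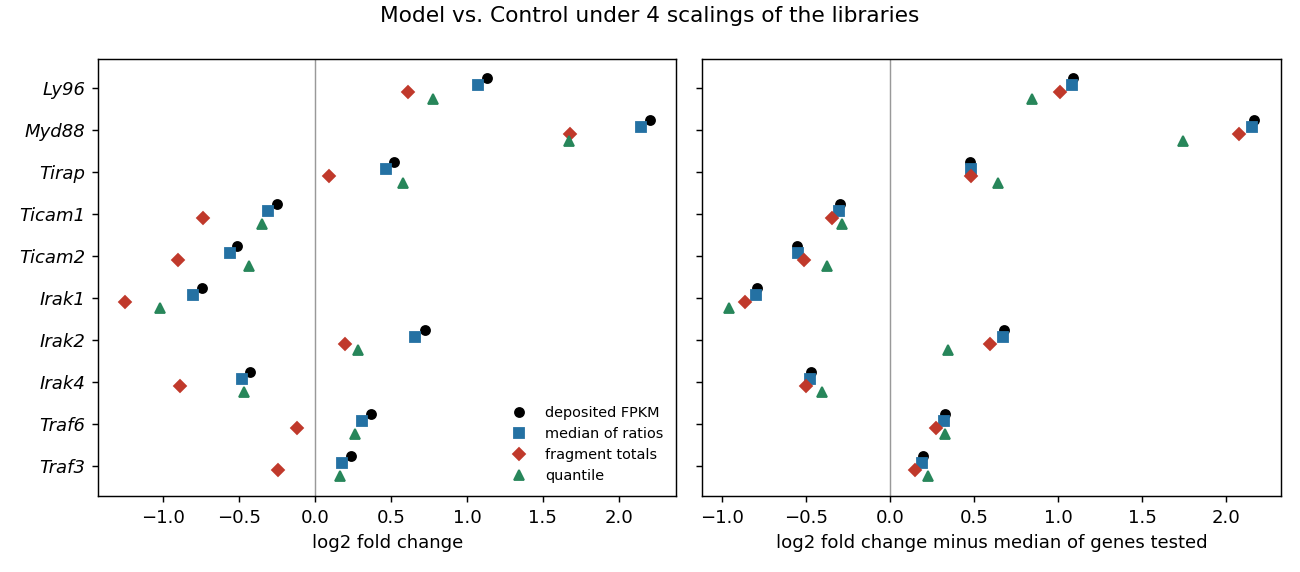
Model vs. Control log2 fold changes of the 10 genes under 4 scalings of the libraries, as fitted (left) and after subtracting the median of all genes tested (right). Traf6 and Traf3 are above 0 on the deposited scale and at -0.12 and -0.24 with fragment totals, and each of the 10 genes keeps its side of 0 once the median is subtracted.

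The plot of the scalings shows that the median of ratios stayed close to the deposited values and that scaling to fragment totals moved all 10 genes to lower values. After subtraction of the median, Myd88 lay at 2.16 on the deposited and 2.07 on the summed-fragment scale, Ly96 at 1.09 and 1.01, and Irak2 at 0.68 and 0.59. For each gene called in Model vs. Control, the gene with the most similar profile over the 6 libraries was sought among 9793 genes. For Myd88 this was Pgap2 (5.00 and 14.1 FPKM in Control, 52.7 and 37.8 in Model, 22.8 and 26.8 in MUS), at a root mean square distance of 0.0917 in centred log2(FPKM + 1). For Ly96 it was Med7, a Mediator subunit gene, at 0.0539.

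The genes around the 10 were described from lists of pathway components. In Model vs. Control the receptor complex and its folding helpers had 5 of 6 genes tested, with 1 higher and 1 lower (15.1% of all genes passed) and a median log2 fold change of -0.62. With summed fragments it had 1 higher and 2 lower with a median of -1.02, since Hsp90b1, a chaperone, also passed (-1.16, limma adjusted p = 0.0247). Cd14, the co-receptor that hands LPS to MD-2, rose by 2.64 (limma adjusted p = 0.0258), from 125 and 406 FPKM in Control to 1748 and 1148 in Model. Cnpy3, a chaperone for Toll-like receptors, fell by 1.26 on the log2 scale (limma adjusted p = 0.0341). Tlr4 itself had 9.13 and 11.4 FPKM in Control and 10.7 and 17.4 in Model and did not pass (0.39, limma adjusted p = 0.393, and -0.11 on the summed-fragment scale). Ly96 passed on the deposited scale (1.13) but not on the summed-fragment scale (0.61, limma adjusted p = 0.106).

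Downstream of TRAF6, 16 of 18 genes were tested, 3 passed as higher and 1 as lower, with a median of 0.34. Of all genes 9.5% passed as higher and 5.56% as lower. With summed fragments 1 was higher and 1 lower, and the median was -0.17. On that scale 641 of all 9794 genes were called higher and 1530 lower. Peli1, a ubiquitin ligase that acts on IRAK1, rose by a log2 fold change of 2.53 and Rnf31, the catalytic subunit of the linear ubiquitin complex, by 1.34, while Peli2, a relative of Peli1, fell by 1.57 on the log2 scale (limma adjusted p = 0.0222, 0.0117 and 0.0236). Tab2 also passed at 1.04 (limma adjusted p = 0.0471) but not on the summed-fragment scale (0.51, 0.171), where Rnf31 (0.88, 0.0357) also fell short of the fold threshold. In the TRIF arm downstream of TRAF3, 9 of 9 genes were tested, 3 passed as higher and 0 as lower, with a median of 1.06. With summed fragments 2 were higher and 1 lower, with a median of 0.55. The 3 on the deposited scale were Irf7, an interferon-inducible regulator of interferon genes (4.68), Azi2, an adaptor of TBK1 (2.41), and the kinase Tbk1 (1.31), at limma adjusted p = 0.00157, 0.00631 and 0.0437. The call of Tbk1 was lost on the summed-fragment scale (0.78, limma adjusted p = 0.0985), and Tbkbp1, which encodes a TBK1-binding protein, was called lower there (-1.20, 0.0272).

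Of the inhibitors of TLR4 adaptor signalling 10 of 13 were tested, and 2 passed as higher and 0 as lower on both scales. On the deposited scale 9.5% of all genes passed as higher and 5.56% as lower. The median of the inhibitors was 0.54 on the deposited and 0.05 on the summed-fragment scale. Tnfaip3, the editing enzyme A20 that removes chains from TRAF6, rose by 3.29 and Socs1 by 2.80 on the log2 scale (limma adjusted p = 0.012 and 0.0018). Irak3, the inhibitory member of the IRAK family, had a log2 fold change of 1.15 and did not pass (limma adjusted p = 0.17). Its value was 1.99 without Control replicate 2 and 0.63 on the summed-fragment scale. Of the other TRAF genes 4 of 5 were tested and only Traf1 passed (3.23, limma adjusted p = 0.0244), on both scales, with a median of 1.45 and, on the summed-fragment scale, 1.00. Traf2 (1.24, limma adjusted p = 0.0513) and Traf5 (1.66, 0.0628) had larger values than Traf6 and Traf3 without passing. Control replicate 2 lowered these 2 values. Without it they were larger, at 1.71 for Traf2 and 2.51 for Traf5. On the summed-fragment scale they were smaller, at 0.78 and 1.23.

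Of the readout genes all 8 of the MyD88 arm and 7 of 8 of the TRIF arm passed as higher in Model vs. Control, with medians of 5.45 and 6.48. The exception was Ifnb1, which was listed at 0 in both Control libraries and at 3.02 and 0.688 FPKM in Model. On the summed-fragment scale Ifnb1 passed too (limma adjusted p = 0.0472), so that 8 of 8 did in each arm, with medians of 5.05 and 6.04. On the deposited scale 12 genes passed in Model vs. Control across the 5 component lists, whose tested numbers are given above list by list. Of the 16 readout genes 15 passed on that scale, against 15.1% of all genes tested. These numbers moved when a library was left out. In the fit without Control replicate 2 the number of calls over all genes moved too. In MUS vs. Model 0 genes passed in each of these lists. Their medians were 0.14 for the receptor complex, -0.01 downstream of TRAF6, -0.08 in the TRIF arm, 0.02 for the inhibitors, -0.38 for the other TRAF genes, and -0.15 and 0.09 for the readouts of the MyD88 and TRIF arms.

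**Figure D5:**
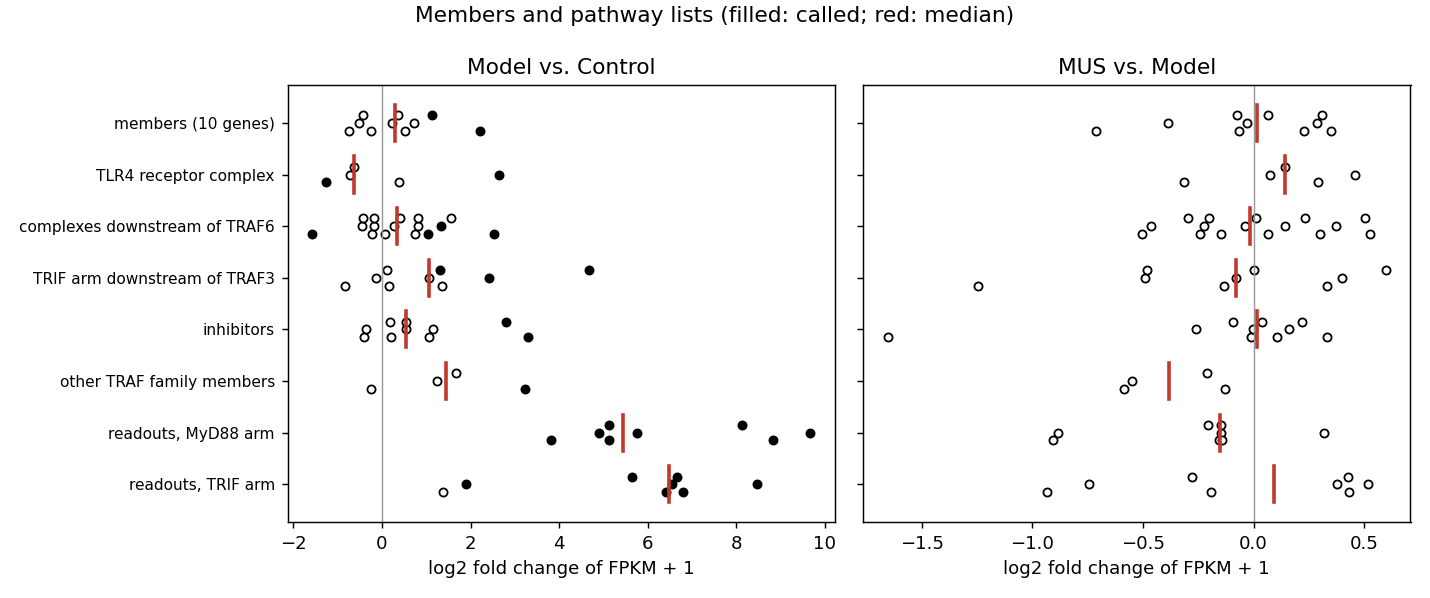
log2 fold changes of FPKM + 1 of the 10 genes (top row) and of the genes of 7 pathway lists in Model vs. Control and in MUS vs. Model, with filled circles for genes that passed and red bars for list medians. In Model vs. Control the readout genes lie furthest to the right, with medians of 5.45 and 6.48, and no circle is filled in MUS vs. Model.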

How the data were processed

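RNA-seq of mouse peritoneal macrophages was deposited by the authors as a table of FPKM for 54532 genes, with gene length and position, in 6 libraries. Groups came from the sample labels. All library columns were used (0 were unmapped), and the table held no columns of the authors' own comparisons. The methods name RSEM for quantification, whereas the submitters' processing notes name HISAT2, featureCounts 1.5.0-p3 and GRCm39. Positions of 53585 of the 54495 genes shared with GENCODE M21 (98.3%) equalled those on GRCm38, so GRCm38 positions are given. FPKM times length was a whole multiple of 1 step per library for 100.0% of values, within 0.1 of a step, which gave the fragments per gene. Depth per library thus sets the counting error, and low-FPKM genes are the least precise.

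Genes whose FPKM averaged at least 1 over the libraries (9794) were fitted as log2(FPKM + 1) with limma 3.58.1 in R 4.3.3 (lmFit, contrasts.fit and eBayes with trend, 3 groups in a single model, 3 residual and 4.04 prior degrees of freedom). Benjamini-Hochberg adjustment covered all genes tested, and a gene was called at an adjusted p up to 0.05 if its log2 fold change also exceeded 1 in either direction. The fit was tested on simulated data. NumPy 2.4.6, Matplotlib 3.10.9 and pandas 2.3.3 under Python 3.11.15 made the tables and figures.

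The labels make the replicate number a shared batch. Differences between replicates 1 and 2, correlated across genes between groups, had r of 0.12 (Control and Model), 0.14 (Model and MUS) and -0.09 (Control and MUS). A separate alternative therefore had the number as a block. Others were another pseudocount (0.1), no filter, a filter at a mean FPKM of 5, scaling to fragment totals (also without mitochondrial genes and the top 20 genes), median-of-ratios scaling, quantile normalization, voom, no trend, only the 2 groups compared, and each library left out.

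The 10 genes and all lists were chosen with earlier results of these data known. Genes named besides the 10 are, per list, up to 3 called in Model vs. Control by size of change, and the nearest profile to each called member. Traf2, Traf5, Irak3, Tlr4, Ifnb1, Hsp90b1, Tbkbp1 and the genes that overlap a member were named after their values were seen. Upstream sequences came from RefSeq (GRCm38.p6). Protein features were not analysed here.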

Additional observations from a re-analysis of the deposited data

How the results depend on the processing

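In Model vs. Control 2 of the 10 genes passed as fitted. The number was 0 without the filter on low values, 4 with voom (Myd88 higher, and Irak1, Irak4 and Ticam2 lower) and 1 with only the 2 groups fitted. With quantile normalization it was 2, but Ly96 no longer passed (0.78) and Irak1 did (-1.02), as with fragment-total scaling. It was 0 to 2 when a library was left out. In MUS vs. Control it was 2 as fitted, 0 without the filter, 0 with quantile normalization, 1 with fragment-total scaling with or without mitochondrial and top 20 genes, and 1 with voom, and 0 to 2 when a library was left out. In MUS vs. Model it was 0 throughout. With the replicate number as a block, 2, 0 and 2 genes passed, and the block changed no call among the 10 genes. The filter at a mean FPKM of 5 left 8 of them.

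Of 324 values of single genes under the settings that kept all libraries, 283 kept their direction and side of the threshold, 17 no longer passed, 9 newly passed and 15 turned. Of 180 with a library left out these were 154, 13, 0 and 13. In Model vs. Control Traf6 and Traf3 turned to -0.12 and -0.24 with fragment totals, -0.14 and -0.26 without mitochondrial and top 20 genes, and -0.13 and -0.27 with voom. In MUS vs. Control Irak2 turned to -0.18, -0.21 and -0.19 under the same settings and to -0.051 with quantile normalization, Traf3 to -0.014, -0.043 and -0.00577, and Tirap to -0.00505 without mitochondrial and top 20 genes. In MUS vs. Model Ly96 turned to 0.020 with quantile normalization.

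With a library left out, log2 fold changes in Model vs. Control ranged from -0.30 to 0.77 for Traf3 and -0.58 to 0.070 for Ticam1. In MUS vs. Control they ranged from -0.070 to 1.00 for Traf3 and -0.35 to 0.020 for Ticam2. In MUS vs. Model the ranges were -0.28 to 0.22 (Ly96), -0.076 to 0.21 (Irak1), -0.065 to 0.52 (Traf3), -0.39 to 0.26 (Ticam1) and -0.32 to 0.17 (Tirap). The causes were not tested.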
